A study of Homo sapiens with 4 samples.

Results

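The aminoacyl-tRNA synthetases were examined in ovarian cancer cells with and without induced siRNA against the splicing factor SRSF3, as a set of 37 named genes: 20 for cytosolic synthetases, 15 for mitochondrial synthetases, and AIMP1 and AIMP2, which scaffold the cytosolic multisynthetase complex. A member was measured where at least 2 probe sets of the exon array carried its symbol, or an older synonym of it, and no other. By this rule 36 of the 37 had a gene value, out of 16613 genes in all, and 1 was not analysed here. The treated cells were A2780/SRSF3si2, a subline of the A2780 ovarian cancer line that makes the siRNA SRSF3si2 under doxycycline (Doxy), grown with 0.1 μg/ml Doxy for 3 days. The same subline grown without Doxy was the control, and each group had 2 Affymetrix Human Exon 1.0 ST arrays of total RNA. Since Doxy was given to the siRNA-expressing group alone and arrays of a line with an unrelated siRNA were not used here, effects of Doxy itself and of the siRNA cannot be told apart. Whether the arrays of a group stem from different cultures is not said in the labels, so that p-values cover the spread of these arrays alone, and this may be technical. Both groups carry the siRNA construct, and the data come from a single subline.

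A synthetase joins an amino acid to its tRNA, the step that sets which amino acid a codon stands for. Cytosolic and mitochondrial translation use largely separate sets of these enzymes, all encoded in the nucleus, and part of the cytosolic set is held in the multisynthetase complex by AIMP1, AIMP2 and EEF1E1. KARS1 and GARS1 serve both compartments from a single gene. Many genes of the cytosolic set are known targets of ATF4, the transcription factor of the amino acid starvation response, which can bind C/EBP-ATF response elements in their promoters.

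The sequences below come from the RefSeq promoter table of GRCh38.p14, which holds a window of 300 bases around the start of each gene, and 32 of the 36 measured members have at least 1 window there. HARS1 and HARS2, the cytosolic and the mitochondrial histidyl-tRNA synthetase, are shown because they start 85 bases apart on opposite strands, share 184 bases of their windows, and HARS1 but not HARS2 passed the test for expression. Each is written 5′ to 3′ on the strand of its own gene, with the shared bases in capitals, so that the capitals of one are the reverse complement of the capitals of the other.
HARS1, minus strand, chr5:140691321-140691620: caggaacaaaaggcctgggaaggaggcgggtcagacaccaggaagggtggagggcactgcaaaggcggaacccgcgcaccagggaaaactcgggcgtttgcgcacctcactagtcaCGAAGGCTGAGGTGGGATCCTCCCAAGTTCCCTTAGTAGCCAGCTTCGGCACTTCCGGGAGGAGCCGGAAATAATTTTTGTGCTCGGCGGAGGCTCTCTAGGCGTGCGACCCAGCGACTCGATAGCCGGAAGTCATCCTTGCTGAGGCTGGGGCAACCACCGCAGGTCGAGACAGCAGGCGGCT
HARS2, plus strand, chr5:140691205-140691504: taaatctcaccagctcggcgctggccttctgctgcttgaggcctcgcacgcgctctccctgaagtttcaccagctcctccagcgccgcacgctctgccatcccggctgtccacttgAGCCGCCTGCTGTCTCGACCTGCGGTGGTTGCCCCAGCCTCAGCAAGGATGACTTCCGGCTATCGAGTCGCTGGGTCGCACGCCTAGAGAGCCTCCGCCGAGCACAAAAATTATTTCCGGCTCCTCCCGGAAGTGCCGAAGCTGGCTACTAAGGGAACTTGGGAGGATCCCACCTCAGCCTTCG

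Matches to the C/EBP-ATF response element were searched as TGATGNAA on both strands. It was found in the windows of 7 of 16 cytosolic synthetase genes (43.8%), of 1 of 14 mitochondrial ones (7.14%) and of 1217 of 27305 genes in the whole table (4.46%). The 8 stretches with a match are shown because they mark which members carry the element, with the match in capitals. On the strand of the gene most of them read TTGCATCA, the reverse complement of TGATGCAA.
AARS1, minus strand, chr16:70289675-70289704: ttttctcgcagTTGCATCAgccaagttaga
CARS1, minus strand, chr11:3057407-3057436: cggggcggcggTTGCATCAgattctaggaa
GARS1, plus strand, chr7:30594834-30594863: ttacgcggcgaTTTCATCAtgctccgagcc
IARS1, minus strand, chr9:92293692-92293721: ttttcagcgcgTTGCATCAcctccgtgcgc
MARS1, plus strand, chr12:57488053-57488082: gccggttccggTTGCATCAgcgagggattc
NARS1, minus strand, chr18:57621804-57621833: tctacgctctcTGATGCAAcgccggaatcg
TARS1, plus strand, chr5:33440956-33440985: gcgcctttcgaTTGCATCAgctggtccagc
YARS2, minus strand, chr12:32756076-32756105: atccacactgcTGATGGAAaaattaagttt
The E-box CACGTG, searched likewise, was found in 1 of 16 cytosolic genes, 3 of 14 mitochondrial genes and 8.77% of all genes. Neither motif was found in the windows of HARS1 and HARS2. A match describes letters in a window and is not a bound site.

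The values are log2 RMA signals of probe sets, and a gene value is the mean over the probe sets of the gene in an array, so that a difference of 1 is a doubling of signal. All differences are Doxy minus No Doxy. Array medians were 5.18 and 5.38 in the Doxy arrays and 5.20 and 5.04 in the No Doxy arrays, and centring each array on its median lowers every difference by 0.16. The median difference of all genes was 0.035 as deposited, and -0.13 after centring. SRSF3 had gene values of 7.84 and 7.97 with Doxy, against 8.50 and 8.33 without Doxy, over 8 probe sets. Both Doxy values were lower, by 0.51 ± 0.18 (standard error) on the log2 scale, but the difference did not pass limma's test (adjusted p = 0.129). The study itself reports a stronger suppression of SRSF3 by this siRNA, measured in this subline by RT-PCR, qPCR and western blotting. Among markers of other cell types, PTPRC of leukocytes lay at 1.99 to 2.27 and PECAM1 of endothelium at 2.79 to 2.95 over the 4 arrays, near the dim end of values that ran from 0.70 to 14.5. The 4 measured of 6 leukocyte markers averaged 3.11 and 2.93 with Doxy, against 3.11 and 2.98 without Doxy, and all 5 endothelial markers 3.04 and 3.02 with Doxy, against 3.12 and 3.16 without Doxy. All 6 fibroblast markers averaged 6.99 and 7.01 with Doxy, against 6.94 and 6.84 without Doxy. Among them COL3A1, DCN and LUM were bright in every array, at 8.36 to 9.56. The others were dimmer, with COL1A1 at 5.16 to 5.55, PDGFRB at 4.39 to 5.05 and COL1A2 at 4.29 to 4.45. The 7 measured of 8 epithelial and ovarian markers averaged 5.27 and 5.14 with Doxy, against 4.87 and 4.78 without Doxy. Among these PAX8 was dim, with 4.76 and 4.82 with Doxy, against 4.68 and 4.34 without Doxy, and EPCAM and CDH1 were called higher, with differences of 2.10 and 0.93, as was LUM with 0.79. Other markers of the same lists lay lower in both Doxy arrays without being called, KRT19 with a difference of -0.81 (adjusted p = 0.0759), KRT8 with -0.38 (adjusted p = 0.266) and COL3A1 with -0.65 (adjusted p = 0.0593). KRT18 and PDGFRB lay higher in both Doxy arrays without being called, with differences of 0.55 (adjusted p = 0.163, limma) and 0.47 (adjusted p = 0.170, limma). By smaller amounts COL1A1 lay higher, and COL1A2 and DCN lower. The part of these markers in the results on synthetases was not tested. In such bulk RNA, fewer cells of a kind and less RNA in each cell cannot be told apart.

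HARS1 and YARS1, the cytosolic synthetases for histidine and tyrosine, rose with Doxy, and AIMP2, a scaffold protein of the multisynthetase complex, fell. No other of the 36 measured members passed limma's test at an adjusted p under 0.05. The 2 higher calls stand against 5.66% of all 16613 genes called higher, and the single lower call against 1.70% called lower, or 7.36% called in either direction. In 16 members both Doxy arrays lay above both No Doxy arrays, as in 30.5% of all genes, and in 4 members both lay below, as in 21.8% of all genes (52.3% for either direction). At an unadjusted p under 0.05 there were 7 members with higher values and 2 with lower values, where 16.5% and 6.68% of all genes had such a p. The median difference of the measured members was 0.15, and 24 of the 36 differences were above 0, against 54.4% of all genes. After centring, 17 were above 0 and 19 below, against 6019 of all 16613 genes above 0 and 10594 below. With an unadjusted p under 0.05 and a fold over 2, the thresholds used in the study, HARS1 was the only member to pass, where 3.02% of all genes passed as higher and 1.06% as lower.

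**Figure D1:**
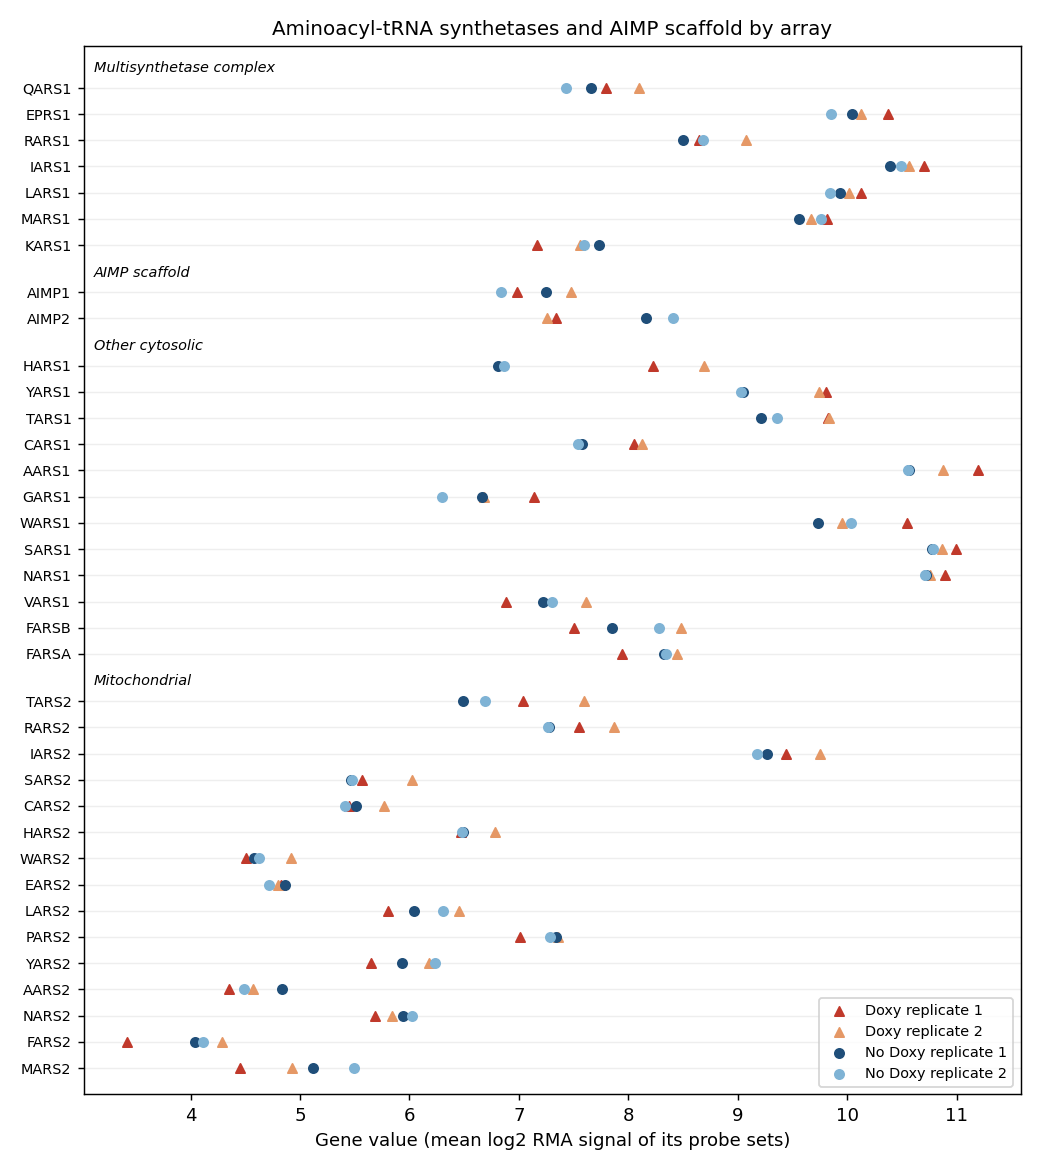
Gene values (mean log2 RMA signal of the probe sets, horizontal axis) of the 36 measured members in each of the 4 arrays, by role, with Doxy arrays as triangles and No Doxy arrays as circles. The triangles of HARS1 and YARS1 lie clear to the right of their circles and those of AIMP2 clear to the left, while 16 of the members overlap.

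The 12 cytosolic synthetases outside the multisynthetase complex held both higher calls, where 5.66% of all genes were called higher. The largest difference of all members was that of HARS1, which charges histidine tRNA. Its 17 probe sets gave gene values of 8.22 and 8.69 with Doxy, against 6.81 and 6.87 without Doxy. Both Doxy arrays were higher by more than the spread within either group, with means of 8.46 ± 0.33 with Doxy and 6.84 ± 0.041 without Doxy (SD, n = 2 each). The difference was 1.62, or 3.07-fold, with a 95% interval of 1.14 to 2.10 (adjusted p = 0.0103, limma). Every setting that left out 1 array kept HARS1 higher, by 1.38 to 1.86, but with No Doxy replicate 1 or No Doxy replicate 2 left out limma called none of the 16613 genes, HARS1 included (adjusted p = 0.134 and 0.141). At an unadjusted p under 0.05 these fits still held 3085 and 2575 genes.

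YARS1, the tyrosyl enzyme, which is also secreted and cleaved into signalling fragments, was the second member to rise. It had gene values of 9.81 and 9.74 with Doxy, against 9.05 and 9.03 without Doxy, over 19 probe sets. The arrays within a group were close together and the groups did not overlap. The difference was 0.73, or 1.66-fold, with a 95% interval of 0.34 to 1.13 (adjusted p = 0.0421, limma). This call was near the threshold and was lost, among other settings, with centred arrays (difference 0.57, adjusted p = 0.0879) and without any 1 of the 4 arrays (differences of 0.70 to 0.77).

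TARS1 and CARS1, the enzymes for threonine and cysteine, had the next largest differences among the cytosolic genes and did not pass the test. TARS1 had 9.82 and 9.84 with Doxy, against 9.21 and 9.36 without Doxy, and 22 of its 23 probe sets were higher in each Doxy array than in either No Doxy array. Its difference was 0.55 (95% interval 0.15 to 0.94, adjusted p = 0.103). CARS1 had 8.05 and 8.13 with Doxy, against 7.58 and 7.54 without Doxy, a difference of 0.53 (95% interval 0.13 to 0.92, adjusted p = 0.107). AARS1, the alanyl enzyme, had 11.19 and 10.87 with Doxy, against 10.57 and 10.56 without Doxy. All 23 AARS1 probe sets were higher in both Doxy arrays, where 26.4% of all probe sets were, but the difference of 0.47 did not pass (adjusted p = 0.180). The probe sets of 1 gene share their arrays and are not independent.

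The rest of this group lay closer to 0. GARS1, the glycyl enzyme, had a difference of 0.43 that came from only 3 probe sets, with differences of 1.62, -0.43 and 0.10, and its sign turned to -0.43 when the median of the probe sets was taken. WARS1, the tryptophanyl enzyme, known to be induced by interferon, had 0.37 with overlapping arrays. SARS1 and NARS1, for serine and asparagine, had 0.15 and 0.11, both below 0 after centring. FARSA and FARSB, the alpha and beta subunits of phenylalanyl-tRNA synthetase, and VARS1, the valyl enzyme, were the members of this group with differences below 0. FARSA had 7.94 and 8.44 with Doxy, against 8.33 and 8.35 without Doxy, a difference of -0.14. FARSB had 7.50 and 8.49 with Doxy, against 7.85 and 8.28 without Doxy, a difference of -0.069. VARS1 had 6.89 and 7.62 with Doxy, against 7.22 and 7.30 without Doxy, a difference of -0.0096. In all of FARSA, FARSB and VARS1, Doxy replicate 1 was the lowest array and Doxy replicate 2 the highest, so that the groups overlapped and the sign of each turned to positive without Doxy replicate 1. The 12 genes outside the complex had a median difference of 0.40, or 0.24 after centring, and in 8 of them both Doxy arrays lay above both No Doxy arrays, where 30.5% of all genes did.

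**Figure D2:**
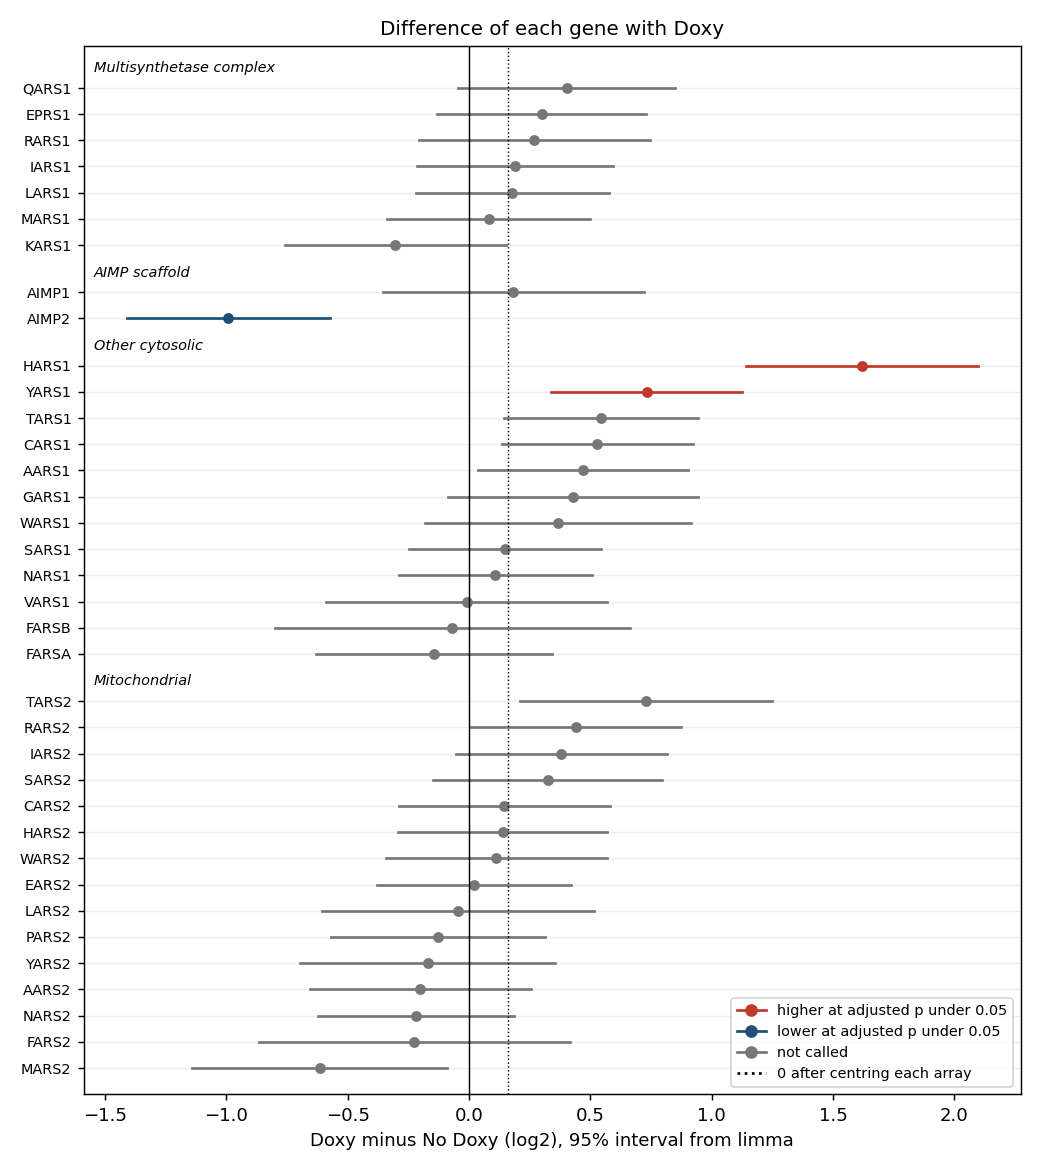
Difference of each measured member (Doxy minus No Doxy, log2, horizontal axis) with its 95% interval from limma, by role. Red marks the higher calls HARS1 and YARS1, blue the lower call AIMP2 and grey the 33 members not called, and the dotted line at 0.16 shows where 0 lies after centring each array.

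The probe sets of the called genes moved together. All 17 HARS1 probe sets were higher in each Doxy array than in either No Doxy array, with differences of 0.30 to 2.47 and a median of 1.66. In YARS1 18 of 19 probe sets were higher in this way, and the remaining one, dim at 3.93 and 4.08 with Doxy against 4.63 and 4.09 without Doxy, was lower by 0.35. In AIMP2 the Doxy values were the lowest in 7 of 8 probe sets, as in 19.0% of all probe sets, and the other overlapped. Of the 17 probe sets of HARS2, 1 was higher in both Doxy arrays and 2 were lower. Its gene values were 6.47 and 6.78 with Doxy, against 6.49 and 6.48 without Doxy, so the groups overlapped. The HARS2 difference was 0.14, with a 95% interval of -0.29 to 0.57 (adjusted p = 0.735), and it was -0.022 after centring. The interval of HARS1, from 1.14 to 2.10, and that of HARS2 do not meet, but the gap between the genes was not tested. Their divergent windows, printed above, share 184 bases.

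**Figure D3:**
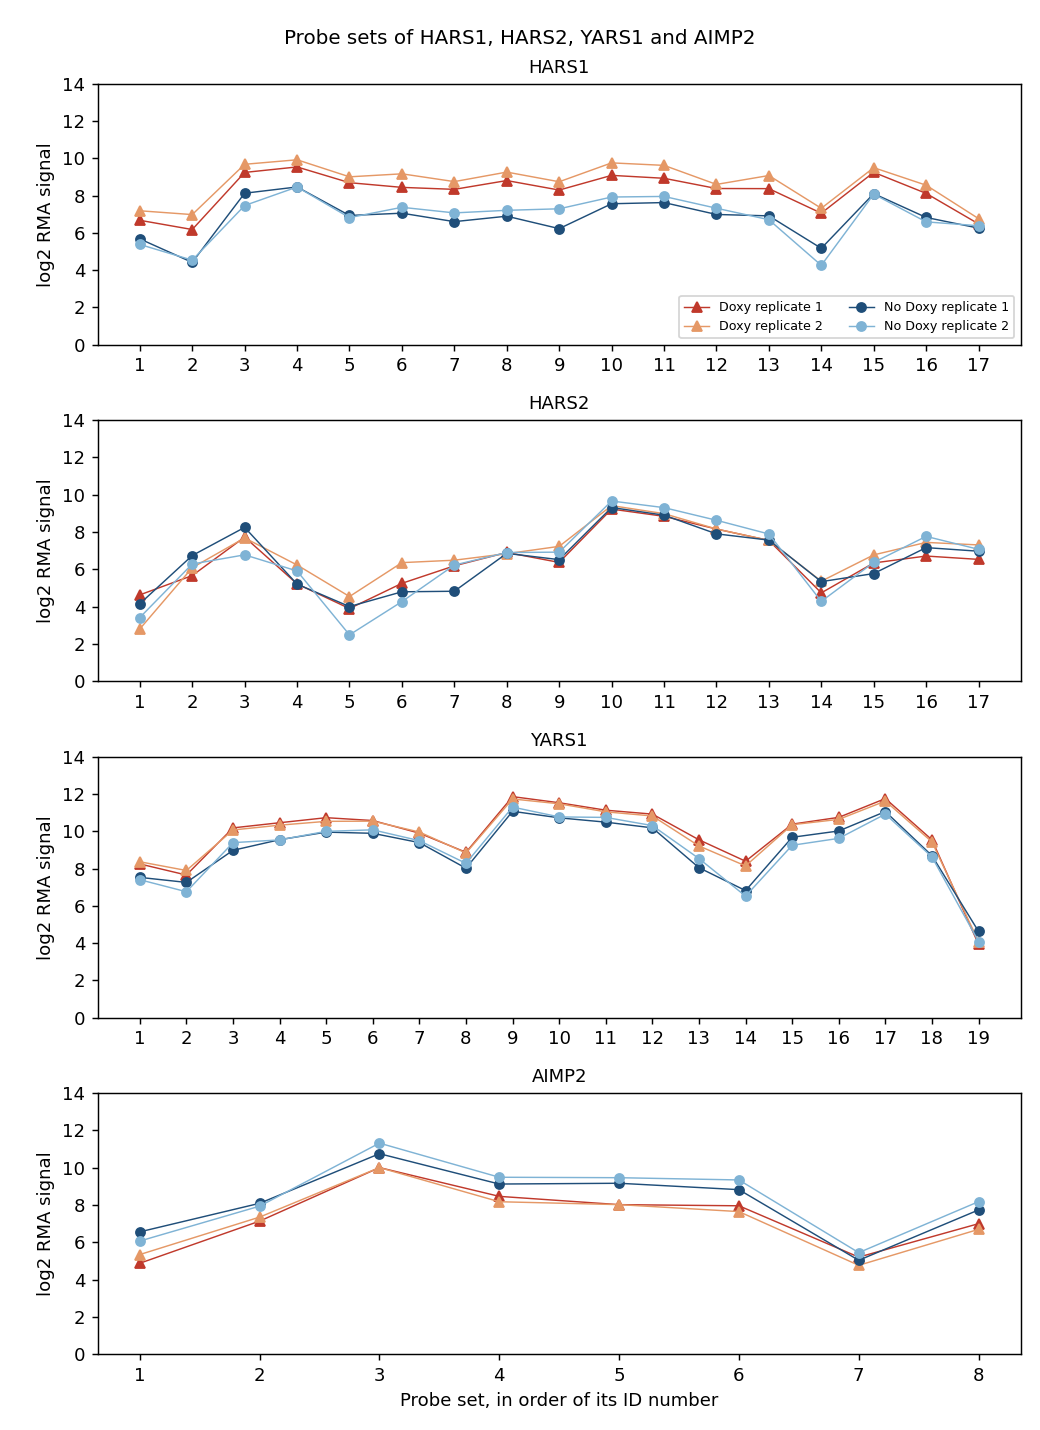
Log2 RMA signal (vertical axes) of every probe set of HARS1, HARS2, YARS1 and AIMP2, in order of the ID number, with Doxy arrays as triangles and No Doxy arrays as circles. The Doxy lines run above the No Doxy lines at all 17 HARS1 probe sets and below them at 7 of 8 AIMP2 probe sets, and cross them in HARS2.

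None of the 7 measured synthetases of the multisynthetase complex was called, where 7.36% of all genes were. Their median difference was 0.19, or 0.028 after centring. In 4 of them both Doxy arrays lay above both No Doxy arrays (30.5% of all genes). QARS1, the glutaminyl enzyme, had 7.80 and 8.10 with Doxy, against 7.66 and 7.43 without Doxy. EPRS1, which joins the glutamyl and prolyl enzymes in a single protein, had 10.37 and 10.12 with Doxy, against 10.04 and 9.85 without Doxy. Both had higher values in each Doxy array, with differences of 0.40 (adjusted p = 0.266) and 0.30 (adjusted p = 0.402). RARS1, the arginyl enzyme, had 8.64 and 9.08 with Doxy, against 8.50 and 8.68 without Doxy, and its groups overlapped. KARS1, the lysyl enzyme, was the only synthetase of the complex with a difference below 0. It had 7.17 and 7.56 with Doxy, against 7.73 and 7.60 without Doxy, both Doxy arrays being lower, and in 13 of its 21 probe sets both Doxy values were likewise the lowest. The KARS1 difference of -0.30 did not pass the test (95% interval -0.76 to 0.15, adjusted p = 0.428). The isoleucyl, leucyl and methionyl enzymes IARS1, LARS1 and MARS1 had differences of 0.19, 0.18 and 0.081, and that of MARS1 was -0.081 after centring.

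Of the scaffold genes AIMP2 was called and AIMP1 was not, and the gap between them was not tested. AIMP2, which links the synthetases of the complex to one another, had gene values of 7.34 and 7.25 with Doxy, against 8.16 and 8.41 without Doxy. Both Doxy arrays were lower, with means of 7.30 ± 0.058 with Doxy and 8.29 ± 0.17 without Doxy (SD, n = 2 each). AIMP2 fell by 0.99 on the log2 scale, or 1.99-fold, with a 95% interval of -1.41 to -0.57 (adjusted p = 0.0219, limma). Its difference stayed between -1.11 and -0.87 when any 1 array was left out, but the call was then lost each time, with adjusted p between 0.0563 and 0.175. AIMP1, the precursor of a secreted cytokine as well as a scaffold protein, had 6.98 and 7.47 with Doxy, against 7.25 and 6.84 without Doxy. Its groups overlapped, and the AIMP1 difference of 0.18 had an interval of -0.35 to 0.72. EEF1E1, the further scaffold protein of the complex, was read as a partner gene and had a difference of 0.42 (adjusted p = 0.210).

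None of the 15 mitochondrial synthetases was called, where 7.36% of all genes were, and their median difference was 0.022, or -0.14 after centring. In 4 of them both Doxy arrays were higher, near the share of 30.5% over all genes, in 2 both were lower (21.8% of all genes) and 9 overlapped. TARS2, for threonine, had 7.04 and 7.60 with Doxy, against 6.49 and 6.69 without Doxy, and RARS2, for arginine, had 7.55 and 7.87 with Doxy, against 7.27 in both No Doxy arrays. IARS2, for isoleucine, had 9.44 and 9.76 with Doxy, against 9.26 and 9.17 without Doxy. In these members each Doxy array was higher than each No Doxy array, with differences of 0.73 (adjusted p = 0.0960), 0.44 (adjusted p = 0.207) and 0.38 (adjusted p = 0.280). MARS2, for methionine, had 4.45 and 4.93 with Doxy, against 5.11 and 5.49 without Doxy, with no overlap and a difference of -0.61 (adjusted p = 0.151). After centring, MARS2 had a difference of -0.78 and was called lower, as were 952 of all 16613 genes, against 282 as deposited. NARS2, for asparagine, had 5.69 and 5.84 with Doxy, against 5.94 and 6.02 without Doxy, both lower, by 0.22. FARS2, the phenylalanyl enzyme, had 3.42 and 4.29 with Doxy, against 4.04 and 4.11 without Doxy, a difference of -0.22 with overlapping arrays that turned to 0.21 without Doxy replicate 1. The other mitochondrial members had differences of -0.20 (AARS2) to 0.32 (SARS2), and none passed the test.

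The cytosolic and the mitochondrial gene for the same amino acid could be set side by side in 16 pairings, in which EPRS1 and FARS2 each stand in 2. In 12 of the pairings the cytosolic difference was the larger. The gap was widest for histidine, with 1.62 for HARS1 and 0.14 for HARS2, and for tyrosine, with 0.73 for YARS1 and -0.17 for YARS2. The pairings in which the mitochondrial difference was the larger were those for threonine, arginine, isoleucine and serine. For threonine both differences were among the largest of their group, with 0.55 for TARS1 and 0.73 for TARS2. The count depended on the arrays used. Without Doxy replicate 1 the mitochondrial difference was the larger also for LARS2 (0.28, LARS1 0.13), WARS2 (0.31, WARS1 0.070) and FARS2 beside FARSA (0.21 and 0.11). Without Doxy replicate 2 the cytosolic difference was the larger also for threonine, isoleucine and serine. Over the whole sets the 19 measured cytosolic synthetases had a median difference of 0.27, or 0.11 after centring, beside 0.022 and -0.14 for the 15 mitochondrial ones. The gap between the sets was not tested, and it was not stable to the arrays used, since without Doxy replicate 1 the medians were 0.20 and 0.28. The sets also differed in signal, with array means of 8.86 to 9.22 for the cytosolic and 5.82 to 6.21 for the mitochondrial genes. Whether this level bears on the size of the differences was not tested. Grouped by the fold of the catalytic domain, the 17 class I enzymes had a median of 0.18 and the 16 measured class II enzymes 0.12, so that the higher calls YARS1 (class I) and HARS1 (class II) fell into different classes.

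**Figure D4:**
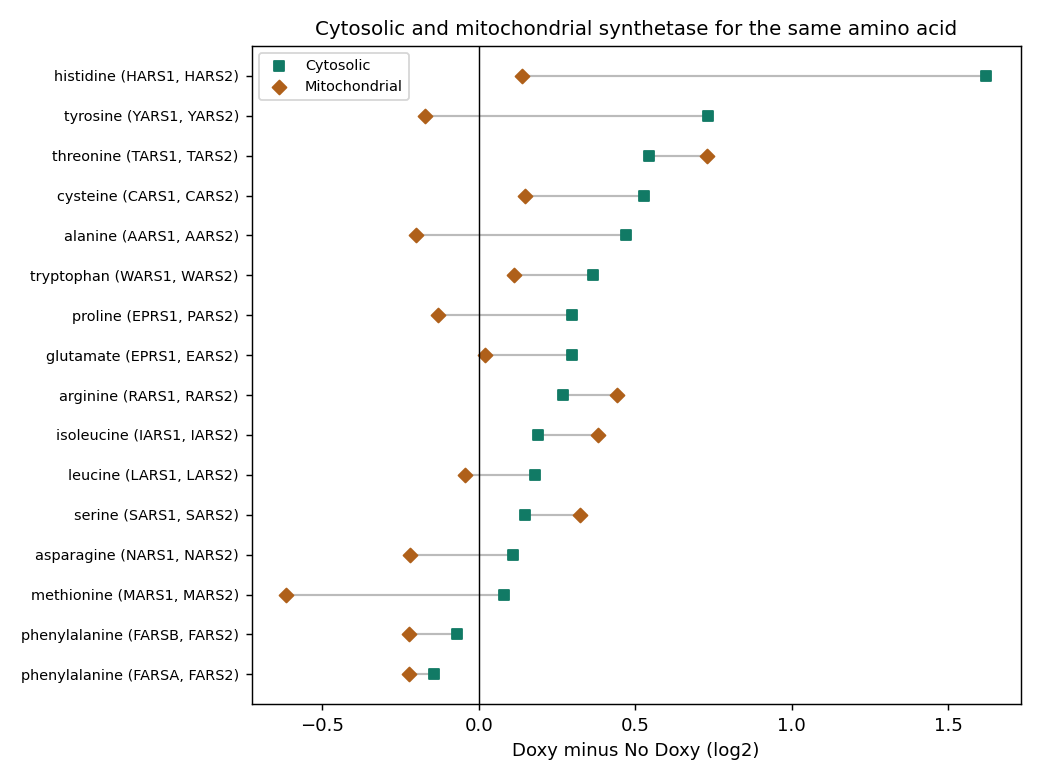
Difference (Doxy minus No Doxy, log2, horizontal axis) of the cytosolic synthetase (squares) and the mitochondrial synthetase (diamonds) for the same amino acid, joined by a line. The square lies to the right of the diamond in 12 of 16 pairings, and the longest line is that of histidine, with 1.62 for HARS1 and 0.14 for HARS2.

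Splicing was compared through the probe sets within each gene, that is, through whether some of them changed more than others. No member passed limma's diffSplice F test at an adjusted p under 0.05, where 2.48% of all genes did, and 6 members had an unadjusted p under 0.05, where 13.5% of all genes did. By the Simes test of diffSplice, which reacts to a single aberrant probe set, CARS1, EPRS1 and YARS1 passed, beside 5.38% of all genes. In CARS1 the probe set farthest from the others had 6.89 and 6.97 with Doxy, against 5.29 and 4.18 without Doxy, a difference of 2.19 where the other CARS1 probe sets had a median of 0.45. The probe set of EPRS1 had 7.21 and 6.69 with Doxy, against 6.01 and 5.04 without Doxy, a difference of 1.43 beside a median of 0.24. In YARS1 it was the dim probe set described above, at -0.35 beside 0.76. The probe sets of CARS1 and EPRS1 were thus higher in both Doxy arrays by more than their neighbours, and that of YARS1 was lower. These probe sets were not placed in exons, since no source used here gives the build of their positions.

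Of the genes that carry the C/EBP-ATF element printed above, none was called, where 7.36% of all genes were called in either direction. The cytosolic ones, AARS1, CARS1, GARS1, IARS1, MARS1, NARS1 and TARS1, had differences of 0.081 to 0.55, all above 0 as deposited and below 0 after centring in MARS1 and NARS1. In all of these cytosolic genes but MARS1, both Doxy arrays lay above both No Doxy arrays (30.5% of all genes). GARS1 cleared narrowly, with 7.14 and 6.68 with Doxy, against 6.66 and 6.30 without Doxy. With the median of probe sets, GARS1 turned to -0.43 and NARS1 to -0.069. AARS1, CARS1 and TARS1 had higher values at an unadjusted p under 0.05 (limma), as did 16.5% of all genes. YARS2, the mitochondrial one, had a difference of -0.17 with overlapping arrays. HARS1, in whose window neither motif was found, had 1.62, and YARS1 had no window in the table. A list of 27 ATF4 targets that are not synthetases, which also holds ATF4 itself, had 25 measured genes. Of these, 1 was called higher and 2 lower, where 5.66% and 1.70% of all genes were. Their median difference was 0.036 beside 0.035 for all genes. The higher call was SLC7A11, the cystine transporter, with 10.16 and 10.06 with Doxy, against 8.97 and 9.15 without Doxy (difference 1.05, adjusted p = 0.0182). The lower calls were DDIT4, an inhibitor of mTORC1, with 6.47 and 6.29 with Doxy, against 7.73 and 7.43 without Doxy (difference -1.20, adjusted p = 0.0164), and STC2, a secreted glycoprotein, with a difference of -0.89 (adjusted p = 0.0296). ATF4 itself had 8.45 and 8.24 with Doxy, against 8.22 and 8.01 without Doxy, a difference of 0.23 (adjusted p = 0.547). SESN2 had 0.89 (adjusted p = 0.0590) and ASNS, asparagine synthetase, 0.58 (adjusted p = 0.0864), and neither was called. At an unadjusted p under 0.05 (limma), 6 of the 25 measured genes of this list had higher values and 4 lower values. Such a p was found in 16.5% and 6.68% of all genes.

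The genes that work beside the synthetases showed no call for expression, where 7.36% of all genes were called in either direction. Of 30 listed partners in making, proofreading and delivering charged tRNA, 27 were measured, and their median difference was 0.066, or -0.096 after centring. Nearest to the threshold was POP1, a protein of RNase P, which trims the 5′ end of tRNA precursors, with 4.75 and 4.81 with Doxy, against 4.05 and 4.14 without Doxy (difference 0.69, adjusted p = 0.0522). SSB, the La protein that binds the 3′ ends of new tRNA transcripts, had a difference of 0.52 (adjusted p = 0.123). Both had higher values in each Doxy array. For splicing, 3 of the partners passed the F test: AARSD1, an alanyl editing protein, EEF1A1, the elongation factor that carries charged tRNA to the ribosome, and POP1, with adjusted p of 0.00815, 0.0141 and 0.0111, where 2.48% of all genes passed. By the Simes test EEF1A1 passed (adjusted p = 0.00556), and AARSD1 (adjusted p = 0.0992) and POP1 (adjusted p = 0.109) did not.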

How the data were processed

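Both conditions of A2780/SRSF3si2 cells were compared, Doxy and No Doxy, with groups taken from the sample labels. The authors deposited log2 values from the RMA core-exon analysis of Expression Console. Not given in the sources used here were the software version, settings and genome build. The submitters' processing notes name Partek 6.6. How values were centred across arrays is unknown. The number of arrays limits the precision.

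Of 287329 probe sets, 261273 carried 1 symbol and were used, 9155 carried several and 16901 none. By the RefSeq genes of GRCh38.p14, 14546 of 16941 symbols were current names, 2304 were replaced and 91 stayed as listed. Gene values are means over at least 2 probe sets. The test of expression was limma (3.58.1, R 4.3.3) with Benjamini-Hochberg adjustment over 16613 genes, and splicing by its diffSplice F test. The smallest two-sided p of an exact permutation test is 0.333 here, so none was used. Scripts were tested on simulated data. Values in every array are given for called members and for the 3 members of each role with the largest difference in each direction. Members, lists and tests were chosen with earlier results of these data known. Alternatives were other gene summaries and probe set filters, centred or quantile normalized arrays, a replicate block, limma with a robust trended prior, the t-test of the methods, the Simes test and leaving out each array. A lone array left in a group is assumed to vary like the others. No label describes the replicate numbers as pairs. Over the 16613 genes, deviations of Doxy replicate 1 and No Doxy replicate 1 from their group means correlated with r = 0.127, so pairing was not established. Figures were drawn with matplotlib 3.10.9.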

Additional observations from a re-analysis of the deposited data

How the results depend on the processing

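HARS1, YARS1 and AIMP2 kept their direction in all 14 alternatives for expression, with differences of 1.38 to 1.86, 0.57 to 0.83 and -1.15 to -0.87. Their calls did not all hold. The 2 higher calls became 1 (HARS1) with the median of probe sets, Tukey's median polish, no dim probe sets, centred arrays and quantile normalization, 0 by the methods' t-test and 0 to 1 with 1 array left out. The lower call of AIMP2 became 0 with the median of probe sets, by the methods' t-test and with any 1 array left out, and centring gave 2 with MARS2 (-0.78, adjusted p = 0.0248 by limma). The methods' t-test called no gene of 16613 after adjustment, with 2328 genes and 5 members at an unadjusted p under 0.05. With the replicate block there were 3 higher calls (HARS1, TARS2, YARS1) and 2 lower ones (AIMP2, MARS2), although pairing was not established, and 0 splicing calls. Over all genes the block called 1727 higher and 636 lower, and centring 916 and 952, against 940 and 282 as deposited. Splicing calls among members were 0, but 3 by the Simes test and 0 to 5 with 1 array left out, the 5 without No Doxy replicate 1 (AARS2, CARS1, LARS1, RARS2, TARS2), when 24.1% of all genes were called.

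The cytosolic median of 0.27 was 0.17 with the median of probe sets, 0.18 with median polish, 0.11 centred, 0.15 quantile normalized and 0.20 to 0.25 with 1 array left out. The mitochondrial median of 0.022 ran from -0.089 to 0.28 with 1 array left out. Signs turned in members that were not called. Centring gave -0.081 for MARS1, -0.053 for NARS1, -0.013 for SARS1, -0.015 for CARS2, -0.14 for EARS2, -0.022 for HARS2 and -0.050 for WARS2. Quantile normalization gave -0.022 for MARS1, -0.086 for EARS2 and -0.0058 for WARS2. The median of probe sets gave -0.43 for GARS1, -0.069 for NARS1, -0.15 for HARS2, 0.087 for LARS2, 0.025 for NARS2 and 0.056 for YARS2, and median polish 0.0051 for VARS1, -0.17 for EARS2 and -0.076 for WARS2. Without dim probe sets WARS2 had -0.061. With 1 array left out the ranges were -0.021 to 0.18 for MARS1, -0.062 to 0.43 for AIMP1, -0.39 to 0.11 for FARSA, -0.56 to 0.42 for FARSB, -0.37 to 0.36 for VARS1, -0.013 to 0.31 for CARS2, -0.049 to 0.092 for EARS2, -0.66 to 0.21 for FARS2, -0.016 to 0.30 for HARS2, -0.37 to 0.28 for LARS2, -0.30 to 0.045 for PARS2, -0.089 to 0.31 for WARS2 and -0.43 to 0.094 for YARS2. The causes were not tested.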

Other observations

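SARS2, the mitochondrial seryl enzyme, gave 2 unlike readings. Its 22 probe sets with that symbol alone gave 5.57 and 6.02 with Doxy, against 5.47 and 5.48 without Doxy. A further 4 probe sets carry the symbols of both FBXO17 and SARS2 and were left out of the gene values, and in all 4 each Doxy value was lower than either No Doxy value, with differences of -0.75 to -0.58. Which of these genes they read is not known here.

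Doxy replicate 1 lay below Doxy replicate 2 in every measured mitochondrial synthetase but EARS2. The group means were 5.82 and 6.21 over the 15 genes, against 5.94 and 5.99 in the No Doxy arrays. The means of the Doxy arrays had the same order, with smaller gaps, over the cytosolic synthetases (9.14 and 9.22) and over all genes (5.16 and 5.27). Gene by gene the order was mixed in the cytosolic synthetases. Doxy replicate 1 lay above Doxy replicate 2 in AARS1, EPRS1, GARS1, IARS1, LARS1, MARS1, NARS1, SARS1, WARS1 and YARS1, and below it in the others.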
